A study of Mus musculus with 2 samples.

Results

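The genes described here are 39 markers of the dividing cell cycle. A set of 19 belongs to the G1/S step, at which a cell commits to copying its DNA, and a set of 20 to the G2/M step, at which it divides. Members were taken by symbol: every non-control spot whose gene name in the scanner files equalled one of the 39 symbols, which gave 59 spots of 50 probes among 34797 gene names on the array. All 39 were found. They were measured in cells labelled GT1-7, a mouse hypothalamic line. The tested cells were given 50 nM gonadotropin-releasing hormone (GnRH), the peptide that drives reproduction through its receptor on the pituitary, for 30 min. The comparison cells were given the solvent DMSO (vehicle) for 30 min. Each group is 1 array of the same slide, so no difference has a replicate check and none was tested.

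GT1-7 cells are known as a clonal line from a mouse tumour, made by expressing the SV40 large T antigen under the control of the GnRH gene's promoter. T antigen binds the retinoblastoma proteins and p53, and both groups come from the same line. By the labels' protocols, cells grew in medium with 10% serum and took the peptide in medium for which no serum is named, and no synchronisation is mentioned. A free-text description on both samples names another cell line and another peptide (bradykinin), and all other labels name GT1-7 and GnRH or DMSO.

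In a dividing cell, mitogens raise D-type cyclins, which with Cdk4 and Cdk6 inactivate the retinoblastoma proteins and free E2F transcription factors. E2F factors then switch on cyclin E, the proteins that load the MCM helicase on replication origins, and the enzymes that make and copy DNA. Later, cyclin A, cyclin B and Cdk1 drive entry into mitosis, where Polo-like and Aurora kinases build the spindle and the spindle checkpoint holds the anaphase-promoting complex back. Transcripts of the second wave build up in G2 and are known to be controlled through CHR promoter elements, read by the DREAM and B-MYB/FOXM1 complexes. In resting neurons most of these genes are silent.

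The arrays were of similar quality. Of the non-control spots, 56.9% were well above background on the GnRH array and 55.2% on the vehicle array, and 0 were saturated. The number of arrays, 1 per group, limits the precision. Signals quoted below are the scanner's processed intensities before scaling, and the GnRH array was the dimmer one: its 75th percentile was 541 against 578 on the vehicle array. Differences are log2 GnRH minus vehicle after each array was set to its own 75th percentile, so a gene with a slightly lower GnRH signal can have a difference near 0. The immediate early genes Egr1 and Fos separated the arrays, with Egr1 at 24361 in GnRH cells against 73.5 in vehicle cells (354-fold) and Fos at 6725 in GnRH cells against 114 in vehicle cells (63.3-fold). The cell-type label was checked against its markers. Both probes of Gnrh1, the hormone gene that defines the line, were not well above background (10.3 and 8.6 in GnRH cells, 7.94 and 6.23 in vehicle cells), which goes against the label, while the gonadotrope markers Cga (69481 and 80508), Nr5a1 (28614 and 33412), Pitx1 (44001 and 48204) and the GnRH receptor Gnrhr (13656 and 14861) were bright on the GnRH and the vehicle array. The hormone beta-subunit genes were not: Lhb read 72.1 in GnRH cells and 71.5 in vehicle cells, and Fshb (5.69 in GnRH cells and 3.80 in vehicle cells) was not well above background. In all, 7 of 10 markers of GnRH neurons and 5 of 6 of gonadotropes were measured. Of the GnRH neuron markers, Isl1 read 2479 in GnRH cells and 2457 in vehicle cells, and Dlx2 read 263 and 231. Vax1, Kiss1r, Dlx1, Otx2 and Gad1 read between 38.4 and 112 by their brightest measured probe. Six6 and Nhlh2 were, like Gnrh1, not well above background. Of 7 general neuron markers, 4 were measured: Tubb3 (23528 in GnRH cells and 22842 in vehicle cells), Snap25, Syt1 and Elavl4. Stmn2 and Rbfox3 had no probe well above background on both arrays, and Map2 was not on the array by that name. Of the lists for other cells, 3 of 5 astrocyte, 2 of 5 microglial and 2 of 5 fibroblast and endothelial markers were measured. The part of other cells in the levels below was not tested, and in a bulk sample fewer dividing cells and less RNA per cell cannot be told apart.

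The data show a nearly complete set of cell-cycle transcripts. Of the 39 members, 37 (94.9%) had a probe well above background on both arrays, against 60.7% of all 34797 gene names and 69% of 18043 RefSeq protein-coding symbols. All 20 G2/M members passed, and 17 of 19 G1/S members. The signals of all 37 lay above their array's median signal, which was 27.8 on the GnRH array and 29.1 on the vehicle array. That median is over all non-control probes, while the 37 had already passed the background mark, so this adds little to the count. Since 37 members passed through both arrays, this count does not depend on which group was brighter.

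The 2 members that did not pass were the D-type cyclins Ccnd1 and Ccnd2, which link mitogen signals to the cycle. Ccnd1 read 7.57 in GnRH cells and 3.27 in vehicle cells, and Ccnd2 read 5.24 in GnRH cells and 4.14 in vehicle cells. Neither was well above background on either array, each had 1 probe, and no fold is given for either. The third D-type cyclin, Ccnd3, was well above background with signals of 3738 in GnRH cells and 3687 in vehicle cells, a difference of 0.11 ± 0.20 (scanner error on the log2 scale, as below). Of their kinase partners, Cdk4 read 67524 in GnRH cells and 74862 in vehicle cells (-0.05), while Cdk6 was not well above background (3.58 in GnRH cells and 4.30 in vehicle cells). Cdk2, the partner of cyclin E, read 694 in GnRH cells and 752 in vehicle cells (-0.02). Levels of different probes cannot be set against each other, so these values say which D-type cyclin was detected, not how their amounts compare.

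Probes decide what was measured, so the probes behind the results are shown here by their first 30 of 60 bases, 5′ to 3′, with G and C in capitals. They are those of the undetected cyclins, of the 2 members that differed most, of 2 members with A- and T-rich probes, and of the member printed 10 times. Coordinates are those of the files, on the mm9 build, and no mm9 annotation was used here, so no exon or UTR is assigned.
Ccnd1 probe, chr7:152116202-152116261 (- strand): ttaatCtGttaGGttCtaGtGttCCGtCtt
Ccnd2 probe, chr6:127098696-127098755 (- strand): aaGaGaCCatCCCGCtGaCtGCGGaaaaGC
Ccne2 probe, chr4:11131423-11131482 (+ strand): ttataaaCtattGttaaGatatGaaGtttt
Cenpf probe, chr1:191464978-191465037 (- strand): GaGCaGtatCtGaataGaaaGCaaaaGGCt
Cdk1 probe, chr10:68801072-68801131 (- strand): ttCttaatttCCtaCGtataaCttaattaa
Aurkb probe, chr11:68865105-68865164 (+ strand): ttCaGaaaaattatGaaGaaCaaCatttta
Bub1 probe, chr2:127626988-127627047 (- strand): aaCaaGattaaGaCCttGCGtaataGGCta
The Ccne2, Cdk1 and Aurkb probes are sparse in G and C, with 15%, 18.3% and 20% over their full length, against 51.7% for the Ccnd2 probe.

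**Figure D1:**
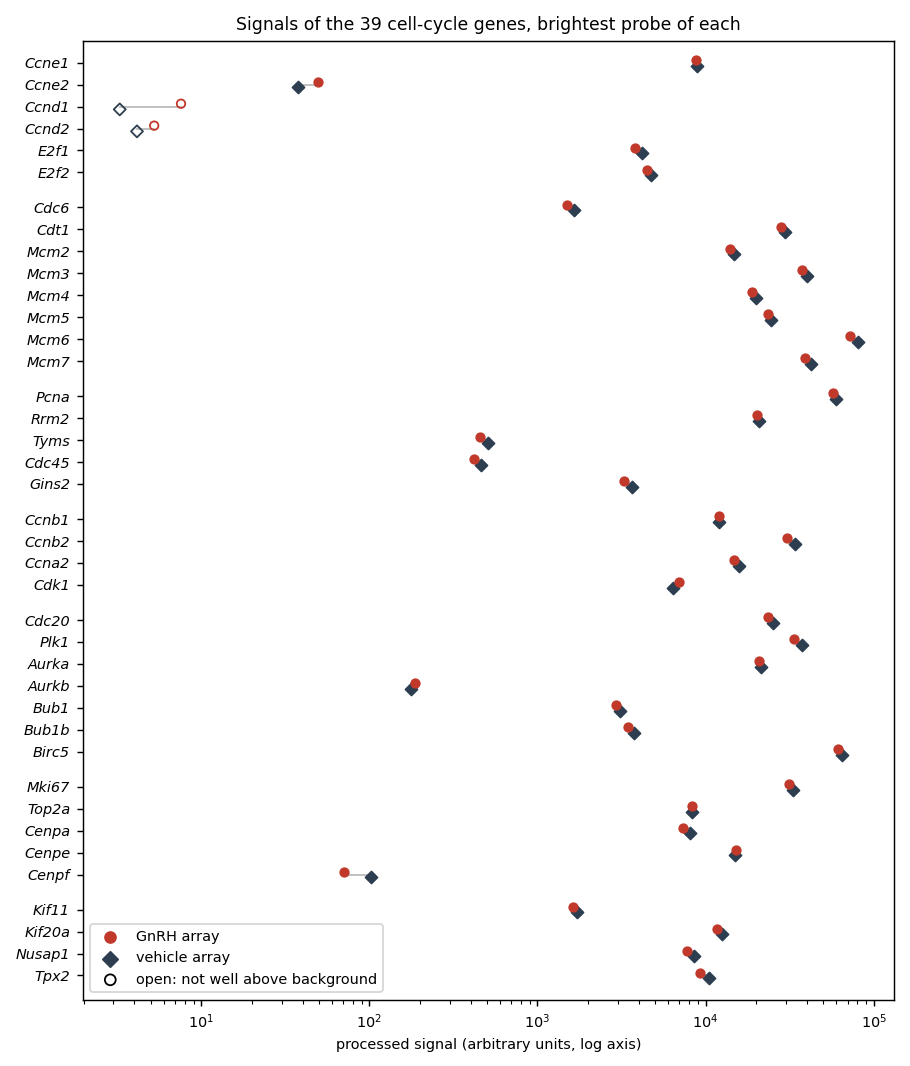
Processed signal of each of the 39 members (rows, grouped by role) on a log axis, in GnRH cells and vehicle cells, 1 array each. The paired points nearly coincide for most members, and Ccnd1 and Ccnd2 lie at the low end, not well above background on either array.

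Member transcripts in GnRH cells were close to the vehicle level at 30 min. Of the 37 measured members, 0 were at least 2-fold higher in GnRH cells, beside 0.308% of 21105 measured genes, and 0 were lower by that factor, beside 0.133%. At 1.5-fold the counts were also 0 and 0, beside 1.19% higher and 0.872% lower among all genes. At 1.2-fold, by the brightest probe of each gene, Ccne2 alone was higher (6.19% of all genes) and Cenpf alone was lower (5.55% of all genes). With shares this low, counts of 0 and 1 among 37 genes are near the background.

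The median difference of the 37 members was 0.0078 on the log2 scale, with quartiles of -0.04 and 0.03 and a range of -0.43 to 0.49. The median over all measured genes was -0.0061. The 17 G1/S members had a median of 0.014, with 9 above 0, and the 20 G2/M members had a median of 0.0035, with 10 above 0. In all, 19 of 37 were above 0, beside 47.5% of all genes. Signs this close to 0 depend on the scaling: with each array set to its median in place of its 75th percentile, 11 of 37 were above 0, beside 36.9% of all genes.

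Both members past 1.2-fold by their brightest probe were dim. Ccne2, cyclin E2, a partner of Cdk2 at the start of S phase, read 49.1 in GnRH cells and 37.4 in vehicle cells, a difference of 0.49 ± 0.25. Cenpf, a kinetochore protein that peaks in G2 and M, read 70.7 in GnRH cells and 102 in vehicle cells, a difference of -0.43 ± 0.23. Both calls at 1.2-fold were lost with normexp background correction, which gave 0.24 for Ccne2 and -0.17 for Cenpf, and with no background correction, which gave 0.24 and -0.16. Normexp was run with an added offset of 50, and the other setting leaves the background in the signal. Either one draws the differences of dim genes toward 0, so this loss is not a separate check. Among the 6092 measured genes with a mean signal under 150, 16.5% were past 1.2-fold on the higher side and 16% on the lower side, against 2% and 1.33% of the 15013 brighter genes. The other 35 members were brighter than that limit and ranged from -0.09 to 0.20 with an SD over members of 0.065. Of all 37, 35 (94.6%) differed by less than their own scanner error, beside 85.9% of all measured genes. These 35 were the brighter members, and 93.3% of all measured genes with a mean signal of at least 150 did so. For bright genes that error is 0.20 and reflects a software setting, not a spread between arrays.

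**Figure D2:**
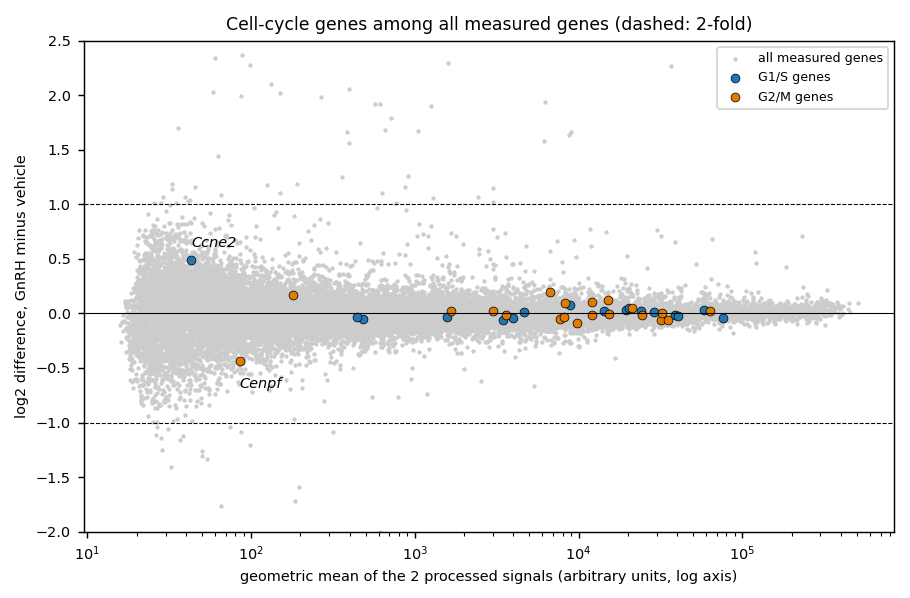
Log2 difference (GnRH minus vehicle) against mean signal (log axis) for all 21105 measured genes in grey and the members in colour, with the 2-fold limits as lines; 27 genes lie outside the plotted range of -2 to 2.5. The members lie near 0 at high signal, and Ccne2 and Cenpf lie at the dim end where all genes scatter more.

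Among the G1 cyclins and E2F factors, 4 of 6 members were measured, with a median of 0.04. Ccne1, cyclin E1, read 8765 in GnRH cells and 8894 in vehicle cells, a difference of 0.07. E2f1, an activating E2F that is itself an E2F target, read 3819 in GnRH cells and 4189 in vehicle cells (-0.04). E2f2, its close relative, read 4491 in GnRH cells and 4749 in vehicle cells (0.01). Only Ccne2, described above, was more than 1.2-fold apart among these 4.

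Among the helicase loading genes, 8 of 8 members lay between -0.05 and 0.03, with a median of 0.0038 and an SD over genes of 0.03. Cdc6 and Cdt1 place the MCM ring on origins. Cdc6 read 1506 in GnRH cells and 1644 in vehicle cells (-0.03), and Cdt1 read 28142 in GnRH cells and 29689 in vehicle cells (0.02). All 6 subunits of the ring were bright. Mcm6 had the lowest difference of the 6, with 72791 in GnRH cells and 80233 in vehicle cells (-0.05), and Mcm5 read 23517 in GnRH cells and 24670 in vehicle cells (0.03). Mcm2, Mcm3, Mcm4 and Mcm7 lay between -0.02 and 0.03.

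The genes of the replication fork and of nucleotide supply ranged from -0.06 to 0.05 with a median of -0.04. Pcna, the sliding clamp of DNA polymerases, read 57127 in GnRH cells and 59716 in vehicle cells (0.03). Rrm2, the regulated subunit of ribonucleotide reductase, read 20116 in GnRH cells and 20788 in vehicle cells (0.05). Tyms, thymidylate synthase, read 457 in GnRH cells and 505 in vehicle cells (-0.05). Cdc45 and Gins2 belong to the active helicase and differed by -0.04 and -0.06. All 5 differences were smaller than the scanner error of 0.20.

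The mitotic cyclins and their kinase had a median of 0.05. Cdk1, the kinase that triggers mitosis, read 6918 in GnRH cells and 6446 in vehicle cells, a difference of 0.20 ± 0.20, which was the highest of the 4. Its partner Ccnb1, cyclin B1, read 12047 in GnRH cells and 11971 in vehicle cells (0.10). Ccnb2, cyclin B2, read 30434 in GnRH cells and 33856 in vehicle cells (-0.06). Ccna2, cyclin A2, which acts in both S phase and G2, read 14785 in GnRH cells and 15798 in vehicle cells (-0.00079). The 4 genes ranged from -0.06 to 0.20.

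The mitotic kinases, checkpoint and passenger genes had a median of 0.02 over 7 members. Plk1, the Polo-like kinase of mitotic entry, read 33615 in GnRH cells and 37355 in vehicle cells (-0.06). Aurka, the centrosomal Aurora kinase, read 20791 in GnRH cells and 21462 in vehicle cells (0.05). Aurkb, the kinase of the chromosomal passenger complex, read 186 in GnRH cells and 176 in vehicle cells (0.17 ± 0.21). Birc5, survivin, its passenger partner, read 61644 in GnRH cells and 64999 in vehicle cells (0.02). Cdc20, which activates the anaphase-promoting complex, read 23553 in GnRH cells and 25363 in vehicle cells (-0.01). The checkpoint kinase Bub1b differed by -0.02, and Bub1 is described below by its spots.

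Of the chromosome and kinetochore genes, Mki67, whose protein coats mitotic chromosomes and is the standard proliferation stain, read 31184 in GnRH cells and 33123 in vehicle cells (0.0078). Top2a, the topoisomerase that untangles sister chromatids, read 8290 in GnRH cells and 8287 in vehicle cells (0.10). Its spot was the only member spot inside one of 3 areas where neighbouring spots differed together, and the median difference of the neighbours there was 0.00. Cenpe, a kinetochore motor, read 15201 in GnRH cells and 14914 in vehicle cells (0.12), and Cenpa, the centromeric histone, read 7338 in GnRH cells and 8137 in vehicle cells (-0.05). With Cenpf the group had a median of 0.0078.

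The spindle genes ranged from -0.09 to 0.03. Tpx2, which activates Aurora A and nucleates spindle microtubules, read 9240 in GnRH cells and 10479 in vehicle cells (-0.09). Kif11, the motor that separates spindle poles, read 1631 in GnRH cells and 1712 in vehicle cells (0.03). Kif20a and Nusap1 differed by -0.01 and -0.03. By the brightest probe, none of the 4 exceeded its scanner error.

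**Figure D3:**
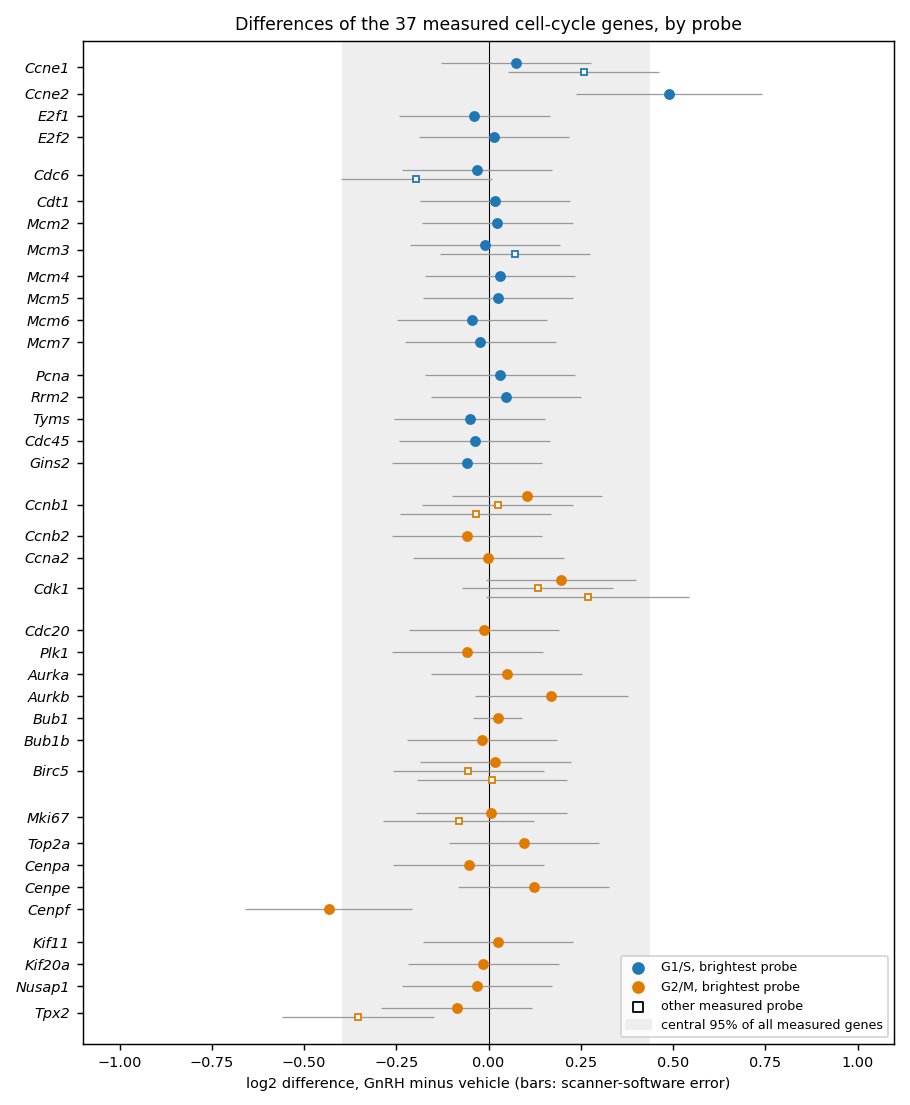
Log2 difference (GnRH minus vehicle) of each measured member, grouped by role, with the scanner software's error as the bar. Most points lie within 0.1 of the line at 0, and Ccne2 (0.49) and Cenpf (-0.43) lie farthest from it.

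Bub1 was the 1 member printed 10 times, which shows the spread within an array. Bub1, a spindle checkpoint kinase, read from 2835 to 3046 with a median of 2918 over 10 spots of the GnRH array. It read from 3006 to 3184 with a median of 3057 over 9 spots of the vehicle array, since 1 spot was an outlier. After scaling, the spots averaged 2.44 ± 0.03 in GnRH cells and 2.41 ± 0.03 in vehicle cells (log2, SD over spots), and the spot values of both arrays overlapped. Spots of 1 array share an RNA sample, so this SD is technical. Over the 261 probes printed 10 times and well above background at every spot, the median SD over spots was 0.05 on both arrays.

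Several probes were measured for 8 members, and they were not always alike. The probes shared a sign in 4 members (Ccne1, Cdc6, Cdk1 and Tpx2) and held both signs in the other 4 (Mcm3, Ccnb1, Mki67 and Birc5). Their differences spanned 0.07 to 0.27 per gene. The widest span was that of Tpx2. Its second probe read 262 in GnRH cells and 358 in vehicle cells (-0.35 ± 0.21), and the second Ccne1 probe gave 0.26 ± 0.20, beside 0.07 on the brighter one. Mki67, by contrast, was bright on both probes, and its second probe read 21934 in GnRH cells and 24787 in vehicle cells (-0.08). Both signs in a gene came with differences near 0, between -0.08 and 0.10, so they are not read as opposite changes.

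Probe composition moved with the differences. The probes of Cdk1 with the A- and T-rich sequence gave 0.20 and 0.13, and they overlap, so they are not independent. The third Cdk1 probe, with 45% G and C, read 43.1 in GnRH cells and 38.2 in vehicle cells (0.27 ± 0.28). All 4 measured member probes under 25% G and C were above 0, from 0.13 to 0.49: those of Ccne2 and Aurkb and the overlapping pair of Cdk1. Among all measured probes, 135 lay under 25% G and C, with a median of 0.12 and 79.3% above 0. Of the 10576 probes between 45% and 55%, 42.4% were above 0 and the median was -0.02. Across the 48 measured member probes, differences and G and C content correlated at a Spearman rho of -0.47 (Pearson r -0.48), and across all 29665 measured probes at a rho of -0.10 (r -0.04). Across the 19480 probes with a mean signal of at least 150, which most member probes reach, rho was -0.18 (r -0.08). The 25 member probes from 35% to under 45% G and C had a median of 0.0078, with 52% above 0. The probes share both arrays and their labelling, so this is a description. The part of base composition in the values of Ccne2, Cdk1 and Aurkb was not tested.

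**Figure D4:**
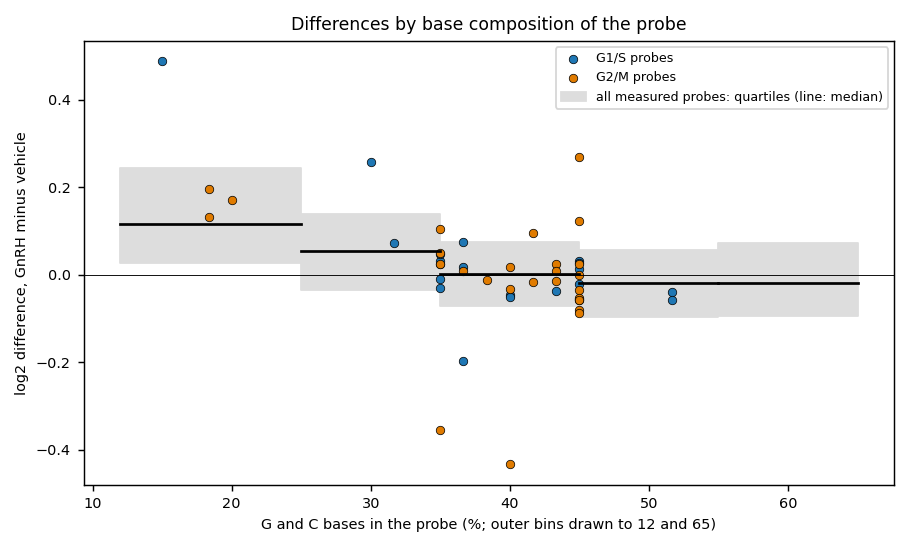
Log2 difference (GnRH minus vehicle) against the G and C content of the probe (percent), for member probes as points beside the median and quartiles of all measured probes in 5 bins of composition. The 4 member probes under 25% lie above 0, where the median of all such probes is 0.12.

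Promoter letters were compared between the G1/S and the G2/M members. RefSeq promoter windows (GRCm38.p6, 250 bases before to 50 after the start, 300 in all) matched 30 of 39 members. There were 16 windows of 14 G1/S genes, of which E2f2 and Mcm7 had more than 1, and 16 windows of 16 G2/M genes. Both strands were searched for 4 motifs: the CHR (TTTGAA or TTCGAA), the E2F site (TTTCGCGC, TTTGGCGC, TTTCCCGC, TTTGCCGC or TTTGGCGG), the CCAAT box (CCAAT) and the cAMP response element (TGACGTCA or TGACGTAA). A match overlapping another was kept. The CHR was in 12 of 16 G2/M windows (75%) and in 4 of 16 G1/S windows (25%), against 19.2% of all 32851 windows. The E2F letters were in 1 of 16 G2/M windows (6.25%) and in 7 of 16 G1/S windows (43.8%), against 2.78% of all windows. CCAAT letters were in 14 G2/M windows (14 genes) and 11 G1/S windows (9 genes), beside 37.4% of all windows. The cAMP response element, a known target of signalling from G-protein-coupled receptors, was in 1 window of each set (6.25% each), beside 2.28% of all. A match is a description of letters, not a binding site.

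The 250 bases before the start are printed for a pair of members of each set, on GRCm38.p6, 5′ to 3′ on the gene's strand, with the motif letters in capitals. Cdk1 carries CHR, CCAAT and E2F letters, Top2a CHR and CCAAT letters, Mcm6 overlapping E2F letters and CCAAT, and Mcm5 those plus a cAMP response element.
Cdk1 promoter, chr10:69352913-69353162 (- strand): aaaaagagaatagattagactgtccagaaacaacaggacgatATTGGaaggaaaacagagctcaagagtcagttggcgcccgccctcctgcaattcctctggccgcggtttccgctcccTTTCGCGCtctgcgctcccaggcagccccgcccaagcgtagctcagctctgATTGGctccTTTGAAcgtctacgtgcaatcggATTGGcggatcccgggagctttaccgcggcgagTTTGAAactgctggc
Top2a promoter, chr11:99024190-99024439 (- strand): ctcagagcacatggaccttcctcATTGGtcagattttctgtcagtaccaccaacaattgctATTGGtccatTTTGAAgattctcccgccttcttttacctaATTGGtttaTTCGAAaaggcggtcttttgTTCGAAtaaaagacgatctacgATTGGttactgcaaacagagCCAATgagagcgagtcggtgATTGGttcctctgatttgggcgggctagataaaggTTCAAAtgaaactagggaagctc
Mcm6 promoter, chr1:128359706-128359955 (- strand): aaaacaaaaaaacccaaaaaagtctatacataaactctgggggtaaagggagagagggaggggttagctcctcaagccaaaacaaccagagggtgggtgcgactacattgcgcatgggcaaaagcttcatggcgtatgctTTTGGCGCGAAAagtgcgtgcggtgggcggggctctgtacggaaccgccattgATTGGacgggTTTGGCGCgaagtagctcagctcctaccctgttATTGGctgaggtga
Mcm5 promoter, chr8:75109259-75109508 (+ strand): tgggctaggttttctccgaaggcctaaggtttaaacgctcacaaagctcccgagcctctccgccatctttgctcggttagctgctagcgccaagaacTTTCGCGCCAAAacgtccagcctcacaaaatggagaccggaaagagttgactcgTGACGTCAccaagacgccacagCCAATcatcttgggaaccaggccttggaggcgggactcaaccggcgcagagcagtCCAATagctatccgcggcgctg
The arrays gave these 4 genes differences of 0.20, 0.10, -0.05 and 0.03, all at or below 1.2-fold.

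Genes that act beside the members were read from 9 lists with 175 genes, of which 171 were measured. At least a 2-fold difference was seen in 2 genes on the higher side (Btg2 and Ccni), beside 0.308% of all genes, and in 0 on the lower side, beside 0.133%. Cdk6, Anapc10, Mycl and Mxi1 gave no value. In the lists nearest to the members, 0 of 17 other G1/S regulators, 0 of 40 other replication genes, 0 of 52 other mitotic genes, 0 of 13 subunits and regulators of the anaphase-promoting complex and 0 of 8 CDK inhibitors were past 2-fold in either direction. Their medians ran from -0.02 to 0.04.

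Within these lists the values stayed small. Rb1, the retinoblastoma gene, printed 10 times, read 883 in GnRH cells and 919 in vehicle cells (0.04 ± 0.06). The other G1/S regulators reached 0.21 (E2f5), 0.17 (E2f4) and 0.15 (Rbl2) above, and -0.10 (Tfdp2), -0.09 (Rbl1) and -0.07 (Skp2) below. Among replication genes, Orc1, an origin recognition subunit, read 296 in GnRH cells and 265 in vehicle cells (0.25), and Pole, the leading-strand polymerase, read 8121 in GnRH cells and 9717 in vehicle cells (-0.16). Of the mitotic list only Kif14, a motor of cytokinesis, was past 1.2-fold, at 71.2 in GnRH cells and 94.3 in vehicle cells (-0.31 ± 0.22). Kif14, like Cenpf, was under a mean signal of 150.

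Cdkn1a, the p21 inhibitor of cyclin-dependent kinases, was also printed 10 times. It read from 9547 to 10166 with a median of 9887 over the spots of the GnRH array, and from 9139 to 9833 with a median of 9368 over those of the vehicle array. After scaling the spots averaged 4.19 ± 0.03 in GnRH cells and 4.03 ± 0.04 in vehicle cells (SD over spots), and the lowest GnRH spot (4.14) was above the highest vehicle spot (4.09). The difference, 0.17 ± 0.06, was under 1.2-fold, and the separation is between spots of 1 array each. The error of 0.06 combines the spots as if they were independent, though spots of 1 array share an RNA sample. A second Cdkn1a probe read 349 in GnRH cells and 372 in vehicle cells (0.0056 ± 0.20), and a dimmer one gave 0.26 ± 0.39. Cdkn2a read 29325 in GnRH cells and 31736 in vehicle cells (-0.02), and Cdkn1b, p27, differed by -0.07.

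Of 12 antiproliferative and growth-arrest genes, all measured, 1 was past 2-fold on the higher side (0.308% of all genes). At 1.2-fold, 6 of the 12 were higher and 1 was lower, beside 6.19% and 5.55% of all genes, and the list's median was 0.25. Among genes with a mean signal of at least 150, which all of the list but Ccng2 reach, those shares were 2% and 1.33%. One of the 6 was Mdm2 (0.31), an inhibitor of p53, and Trp53, which encodes p53, differed by -0.01. This list was chosen with earlier results of these data known. Btg2, an antiproliferative cofactor of mRNA deadenylation and an early response gene, read 3402 in GnRH cells and 742 in vehicle cells, 4.90-fold higher. Its relative Tob1 read 4474 in GnRH cells and 2858 in vehicle cells (1.67-fold). Gadd45b, a stress sensor, read 1657 in GnRH cells and 1301 in vehicle cells (0.44), while Gadd45a read 2375 in GnRH cells and 3048 in vehicle cells (-0.27). The third, Gadd45g, differed by 0.26, at the edge of the 1.2-fold limit.

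Of the 5 Polo-like and Aurora kinase relatives, Plk2 and Plk3 were higher by more than 1.2-fold, beside 6.19% of all genes. Among genes with a mean signal of at least 150, which Plk2 and Plk3 reach, that share was 2%. Plk2, known as an early response kinase, read 305 in GnRH cells and 217 in vehicle cells (0.59 ± 0.21), and Plk3 read 5011 in GnRH cells and 3881 in vehicle cells (1.38-fold). The mitotic member of that family, Plk1, differed by -0.06, as given above. Aurkc read 62.7 in GnRH cells and 79.7 in vehicle cells (-0.25 ± 0.23). Its second probe read 24.1 in GnRH cells and 23.2 in vehicle cells, with the opposite sign (0.15 ± 0.36). Both Aurkc probes were dim, where all genes scatter more, so no direction is read from them. The median of the Polo-like and Aurora relatives was 0.11. In the MYC and MAX network, 8 of 10 genes were measured with a median of 0.09. Myc itself, a mitogen-responsive activator of growth genes, read 220 in GnRH cells and 221 in vehicle cells (0.08 ± 0.15). Mxd1 and Mnt, partners of Max that oppose Myc, differed by 0.31 and 0.28. A second, dimmer Mxd1 probe gave 0.12 ± 0.21. Mxd4 and Mxd3, relatives of Mxd1 on the same list, differed by 0.10 and -0.14.

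Of 16 other cyclins and CDKs, Ccni was past 2-fold. Ccni, cyclin I, read 15374 in GnRH cells and 5192 in vehicle cells (3.16-fold). Its spot lies in one of the areas where neighbouring spots differed together, and the neighbours' median difference there was -0.41, in the other direction. Ccnl1, a splicing-associated cyclin, read 1311 in GnRH cells and 1172 in vehicle cells (0.26), and its second probe gave 0.34. The list's median was 0.04.

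**Figure D5:**
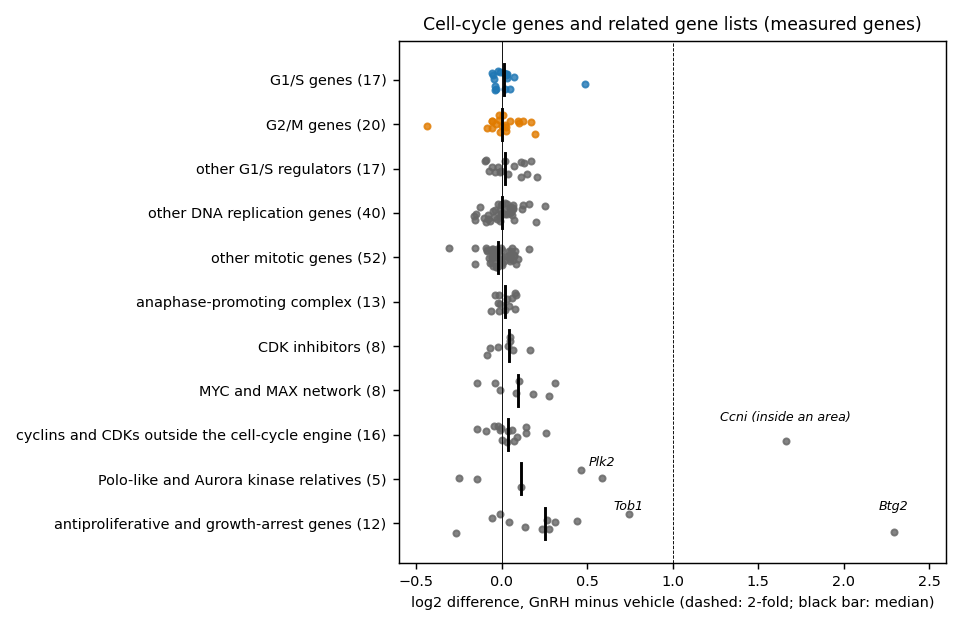
Log2 difference (GnRH minus vehicle) of each measured gene in the G1/S members, the G2/M members and the lists of related genes, 1 row per list with its median marked. The members and the other replication and mitotic genes cluster at 0, and Btg2, Ccni, Tob1, Plk2 and Plk3 lie to the right.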

How the data were processed

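What was measured is total RNA of cells labelled GT1-7, amplified and labelled with Cy3, on Agilent mouse arrays of 1 colour whose probes are 60 nt long, 1 array per group and both on 1 slide. The scanner files deposited by the authors hold a linear intensity per spot. Background subtraction and detrending were done by Feature Extraction, version 10.7.1.1 per the file headers and 9.5.1.1 per the submitters' processing notes. A value table deposited by the authors is also on a linear intensity scale. Its column medians were 28.4 for both arrays, and over 29665 probes its GnRH minus vehicle differences had an r of 0.998 with the scanner's. How it was centred is not given in the sources used here.

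Spots of controls and outlier spots (94 on the GnRH array and 121 on the vehicle array) were left out. Log2 processed signals were averaged per probe and set to each array's 75th percentile. Well above background means that 50% or more of a probe's remaining spots had the software's mark. A gene is its brightest such probe on both arrays. A gene was called at 2-fold, and no test was run. Errors are those of the scanner software, mostly its multiplicative setting of 0.1. Counts and medians were recomputed with other scalings, background corrections, filters, probe rules and thresholds. All members are named, and of each list the genes with the largest differences, up to 3 in each direction, were the candidates for naming. The members and lists were chosen with earlier results of these data known. The scripts were tested on simulated data. Python 3.11.15, numpy 2.4.6, pandas 2.3.3, R 4.3.3 and limma 3.58.1 (normexp) were used. Promoters are RefSeq's, on GRCm38.p6.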

Additional observations from a re-analysis of the deposited data

How the results depend on the processing

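The members' median stayed between -0.02 and 0.01 on the log2 scale under 15 other settings, that of the G1/S members between -0.01 and 0.02 and that of the G2/M members between -0.02 and 0.01. The count of members at least 2-fold higher was 0 except with no filter on dim probes, which counts Ccnd1 and gives 1, and at a threshold of 1.2-fold, which gives 1 higher (Ccne2) and 1 lower (Cenpf). A member value counted as moved only past its scanner error, 0.20 for most members, so a change of sign near 0 did not count. Of 550 member values, 2 moved by more than their error, both of Cenpf, at -0.17 with normexp background correction and -0.16 with no background correction. Ccne2, 0.49 in the main setting, was 0.24 under both, so that neither gene stayed past 1.2-fold. Both settings draw dim signals together, by the added offset or by the background left in, so this loss is not a separate check. Of the genes in the 9 lists, 2 were at least 2-fold higher, 1 with areas of neighbouring spots left out, which removes Ccni, 4 at 1.5-fold and 11 at 1.2-fold. The count lower was 0, and 2 at 1.2-fold. The median of the Polo-like and Aurora relatives, 0.11, was 0.29 with the stricter filter and 0.29 with a mean signal of at least 150, an alternative chosen after seeing the data, since both leave out Aurkc. Over all genes, 65 were higher and 28 lower, against 1252 and 756 with no filter on dim probes, 549 and 309 with the looser background call, 33 and 5 with the stricter filter, 40 and 8 with a mean signal of at least 150, 45 and 12 with normexp, 46 and 12 with no background correction, and 45 and 14 with areas left out. No paired analysis was possible because each group has 1 array. Signal over background limits Ccnd1 and Ccnd2, for which no level was measured.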
